A study of Mus musculus with 46 samples.

Results

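*Ttll7* and 8 genes for other enzymes and partners that edit the tails of tubulin were followed in muscles of mice with altered androgen levels and with or without the sarcomere protein encoded by *Actn3*. *Ttll7* was selected on its response to androgen and genotype in these same mice, so its values are a description and carry no test. The other 8 are *Ttll1*, *Ttll4*, *Ttll5*, *Ttll11*, *Ttl*, *Agtpbp1*, *Vash1* and *Svbp*. They were listed for their function, but with earlier results of these data known, and the question is whether they share the pattern of *Ttll7*. All 9 were measured in both tables, 9 of 17514 genes in the first experiment and 9 of 16987 in the second, and 16642 genes were in both.

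Microtubules are built from alpha- and beta-tubulin, whose C-terminal tails face outward and carry removable marks. Ligases of the tubulin tyrosine ligase family add glutamate chains or a terminal tyrosine to the tails, peptidases take them off, and severing enzymes, motors and other binding proteins read the outcome. In striated muscle, microtubules that have lost the tyrosine are known for binding to the desmin network and stiffening the fibre.

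The measurements were total RNA sequencing counts per gene of whole muscle from C57BL6 mice, wild type (WT) or with *Actn3* deleted in every tissue (KO). In the first experiment, gastrocnemius came from males operated on at 8 to 10 weeks of age and kept for 12 weeks, with the testes removed (orchidectomy, ORX) or left in place (sham). There were 6 WT and 6 KO mice with sham surgery, and 6 WT and 5 KO mice with ORX. In the second, spinalis came from females given an implant with 10 mg of dihydrotestosterone (DHT), an androgen that needs no conversion to act, or an empty implant at 4 to 5 weeks of age for 6 weeks.

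There were 5 mice of each genotype with an empty implant and 6 of each with DHT. The implant lay between the scapulae, next to the spinalis. Muscle, sex, age and length of treatment differ together between the experiments and cannot be told apart. Each table was normalized on its own, so levels are compared within a table. In whole muscle, fewer cells of a type and less RNA per cell cannot be told apart.

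The lowest, median and highest library totals were 43.4, 47.1 and 50.3 M counts (M stands for 1e6) in WT-sham and 39.9, 45.6 and 55.4 M in WT-ORX. They were 29.5, 34.3 and 37.5 M in KO-sham and 26.7, 41.6 and 48.5 M in KO-ORX. Every KO-sham library was therefore smaller than every WT-sham library. In the spinalis, totals ran from 37.3 to 51.2 M (median 47.0) in WT-empty and from 34.8 to 53.9 M (median 52.0) in WT-DHT. They ran from 42.5 to 47.8 M (median 44.1) in KO-empty and from 34.9 to 51.7 M (median 44.2) in KO-DHT.

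Of the WT-DHT libraries, those of mice 39KR and 50KR stood apart. By chi-square per degree of freedom over all genes, the median difference from the other libraries of the group was 575 for 39KR and 319 for 50KR. It was 41.1 to 42.5 for the other 4, and at most 170.1 for a library of any other group. The gene whose share differed the most, ENSMUSG00000119584, which has no symbol in the annotation used, took 10.8% and 5.33% of the counts of 39KR and 50KR. It took at most 0.805% in the other 4 and at most 2.27% in WT-empty, 1.27% in KO-empty and 4.15% in KO-DHT. *Lars2* took 6.08% and 2.92%, against at most 0.0924% in the other 4, 0.878% in WT-empty, 0.361% in KO-empty and 1.34% in KO-DHT. Main values with DHT in WT are therefore also given without both mice, a setting chosen after seeing the data. Without them 1689 genes were called with DHT in WT in place of 1914, and 662 in the interaction in place of 550.

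The deleted gene was read first as a check of the genotype labels. *Actn3* stood at 6622 ± 379 CPM (counts per M counts of the library, scaled by TMM; SD, n = 6) in WT-sham and 45.7 ± 6.84 CPM (n = 6) in KO-sham. In the spinalis it stood at 9669 ± 657 CPM (n = 5) in WT-empty and 69.6 ± 11.1 CPM (n = 5) in KO-empty. No KO mouse came near a WT mouse in either muscle, and the labels fit these levels. *Actn3* itself also moved with androgen in WT, by 0.42 on the log2 scale after ORX (SE 0.09, q 1.99e-03) and by -0.44 with DHT (SE 0.09, q 8.10e-04; -0.50 without mice 39KR and 50KR).

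The muscle label was checked on 8 fibre markers, all measured, with *Ttn* the most abundant. Their summed level lay between 156842 and 293158 CPM in the gastrocnemius libraries. In the spinalis it was lower in WT-DHT, with a mean of 245698 CPM, than in WT-empty, with 281585 CPM, and the mice overlapped. In KO-empty the mean was 239294 CPM and in KO-DHT 220039 CPM, and KO-empty mice overlapped WT-empty mice too. Of the 8, *Myh1* was called lower after ORX in WT and KO (-0.61 in each), *Tnnt3* after ORX in KO (-0.20) and in KO-empty against WT-empty (-0.37), and *Acta1* in KO-sham against WT-sham (-0.37). The part of these markers in the values below was not tested.

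*Ttll7* (ENSMUSG00000036745) encodes a glutamylase that adds glutamate chains to tubulin tails, with a preference for beta-tubulin. Its exons, like those of the 8 others, overlap no exon of another annotated gene. In the gastrocnemius, its lowest, median and highest levels were 551, 579 and 630 CPM in WT-sham and 243, 268 and 296 CPM in WT-ORX. In KO-sham they were 339, 362 and 376 CPM. The 5 KO-ORX mice stood at 241, 238, 239, 247 and 243 CPM. WT-sham was highest and KO-sham second, each apart from every mouse of the other groups, and WT-ORX and KO-ORX overlapped at the bottom.

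The group means of *Ttll7* were 584 ± 29.4 CPM in WT-sham (SD, n = 6), 361 ± 13.8 in KO-sham (n = 6), 269 ± 16.7 in WT-ORX (n = 6) and 241 ± 3.56 in KO-ORX (n = 5). The log2 fold change after ORX was -1.12 (SE 0.04) in WT, a ratio of 0.462. In KO it was -0.58 (SE 0.05), a ratio of 0.668. KO-sham against WT-sham gave -0.69 (SE 0.04), and the effect of ORX differed by 0.53 (SE 0.06) between the genotypes. The lower level in KO and the lower level after ORX thus did not add up on the log2 scale: KO-ORX mice were near WT-ORX mice.

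In the spinalis, *Ttll7* stood at 258, 252, 257, 211 and 245 CPM in the 5 WT-empty mice. The lowest, median and highest of the 6 WT-DHT mice were 401, 507 and 650.1 CPM. The 5 KO-empty mice stood at 196, 194, 159, 169 and 167 CPM, and the 6 KO-DHT mice at 213, 230.0 and 280.1 CPM as lowest, median and highest. Every WT-DHT mouse was above every other mouse, every KO-empty mouse was below every other mouse, and WT-empty and KO-DHT overlapped.

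For *Ttll7* the group means were 514 ± 90.3 CPM in WT-DHT (SD, n = 6), 245 ± 19.5 in WT-empty (n = 5), 238 ± 23.4 in KO-DHT (n = 6) and 177 ± 17.0 in KO-empty (n = 5). The log2 fold change with DHT was 1.07 (SE 0.10) in WT, a ratio of 2.10, and 0.42 (SE 0.10) in KO, a ratio of 1.34. KO-empty against WT-empty gave -0.47 (SE 0.10), and the effect of DHT differed by -0.64 (SE 0.14) between the genotypes. With 39KR and 50KR left out, *Ttll7* gave 0.93 with DHT in WT and -0.50 for the difference between the genotypes. KO females with DHT stood at about the level of WT females with an empty implant.

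**Figure D1:**
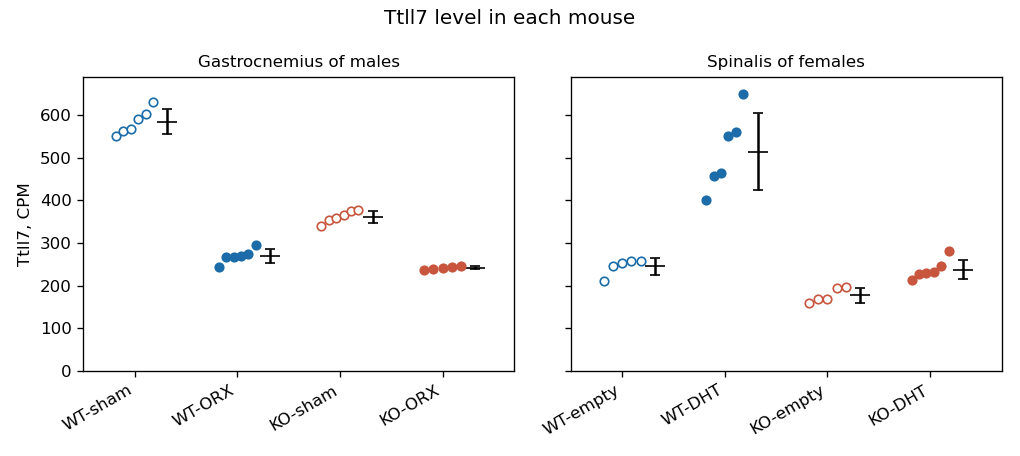
*Ttll7* in CPM (TMM) in each mouse, gastrocnemius of males on the left and spinalis of females on the right, with each table normalized on its own. Circles are mice, open for sham or empty implant and filled for ORX or DHT, blue for WT and red for KO; black marks give the mean and SD of 5 or 6 mice. WT-sham mice lie between 551 and 630 CPM, above all others of their table, and WT-DHT mice between 401 and 650.1 CPM, above all others of theirs.

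Levels of different genes were compared as CPM per kilobase of exonic sequence, to allow for length. The length was the annotated exonic sequence of a gene, such as 21.8 kb for *Agtpbp1*, 15.9 kb for *Ttll5* and 1.065 kb for *Svbp*. The annotation is on another genome build than the alignment. Which transcripts were present was not examined. Where they are shorter than the length used, the level given is too low, so the order depends on these lengths. In WT-sham, *Ttll7* was the highest of the 9 at 70.6 CPM per kb, followed by *Svbp* at 7.14, *Agtpbp1* at 3.90, *Ttll4* at 2.45 and *Ttl* at 2.40. *Vash1* stood at 1.03, *Ttll1* at 0.720, *Ttll5* at 0.555 and *Ttll11* at 0.407 CPM per kb. Of the neighbours in this order, *Ttll4* and *Ttl* (SD 0.320 and 0.141 CPM per kb), and *Ttll1* and *Ttll5* (SD 0.153 and 0.0450), differed by less than the sum of their SDs.

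In WT-empty spinalis the order was the same, from *Ttll7* at 29.6 CPM per kb, *Svbp* at 4.73, *Agtpbp1* at 4.08, *Ttll4* at 3.54 and *Ttl* at 1.90 down to *Vash1* at 1.49, *Ttll1* at 0.845, *Ttll5* at 0.543 and *Ttll11* at 0.528. There *Svbp* and *Agtpbp1*, *Agtpbp1* and *Ttll4*, *Ttl* and *Vash1*, and *Ttll5* and *Ttll11* differed by less than the sum of their SDs. *Ttll7* stood far above the others in both muscles.

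The tests below are edgeR quasi-likelihood F tests across all genes of a table, with the Benjamini-Hochberg adjusted p given as q. A gene was called at q of 0.01 or less for treatment and genotype, and at 0.05 or less for the interaction, the difference between the treatment effects of the genotypes. The comparisons within a table share groups, and their values for the members are set side by side.

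In the gastrocnemius, 0 of the 8 other enzymes were called after ORX in WT, against 5.45% of all genes, and 0 after ORX in KO, against 5.57%. For KO against WT in sham mice 0 were called, against 5.3%, and for the interaction 0, against 0.0228%. The unadjusted p was under 0.05 for 0, 1, 1 and 0 of the 8 in these comparisons, against 22.3%, 24.5%, 23.3% and 9.61% of all genes, and DESeq2 and limma-voom also called 0 in each of them. With these shares among all genes, 0 of 8 is near the background.

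The log2 fold changes of the 8 after ORX lay between -0.12 and 0.18 in WT, with a median of 0.03 beside 0.01 over all genes, and their 95% intervals reached from -0.44 to 0.52. After ORX in KO they lay between -0.22 and 0.07, with a median of -0.06 beside 0.01 over all genes. For KO against WT in sham mice they lay between -0.11 and 0.25, with a median of 0.03 beside -0.01. For the interaction they lay between -0.39 and 0.04, with a median of -0.07 beside 0.00.

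Among the glutamylases, *Ttll1*, *Ttll4* and *Ttll5* have the same kind of activity as *Ttll7*, and *Ttll11* lengthens glutamate chains. *Ttll5* differed by 0.07 (SE 0.07) after ORX in WT and by 0.07 (SE 0.07) in KO. *Ttll4* differed by 0.05 (SE 0.10) and -0.04 (SE 0.10). *Ttll1* and *Ttll11* had 26 to 149 counts in a library, and SEs of 0.15 to 0.19 in the treatment comparisons. Their 95% intervals in these comparisons reached from -0.60 to 0.52, so differences within them were not detectable at this depth.

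*Ttl*, the ligase that puts the terminal tyrosine back on alpha-tubulin, differed by -0.12 (SE 0.06, q 0.245) after ORX in WT and by -0.11 (SE 0.07, q 0.308) in KO. *Agtpbp1*, a peptidase that shortens glutamate chains, differed by 0.01 (SE 0.04) and -0.04 (SE 0.05), the smallest errors of the 8. *Svbp*, the partner that *Vash1* needs to remove the tyrosine, differed by -0.01 (SE 0.07) in WT and by -0.18 (SE 0.08, q 0.153) in KO. *Vash1* itself differed by 0.18 (SE 0.13) and 0.04 (SE 0.15).

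**Figure D2:**
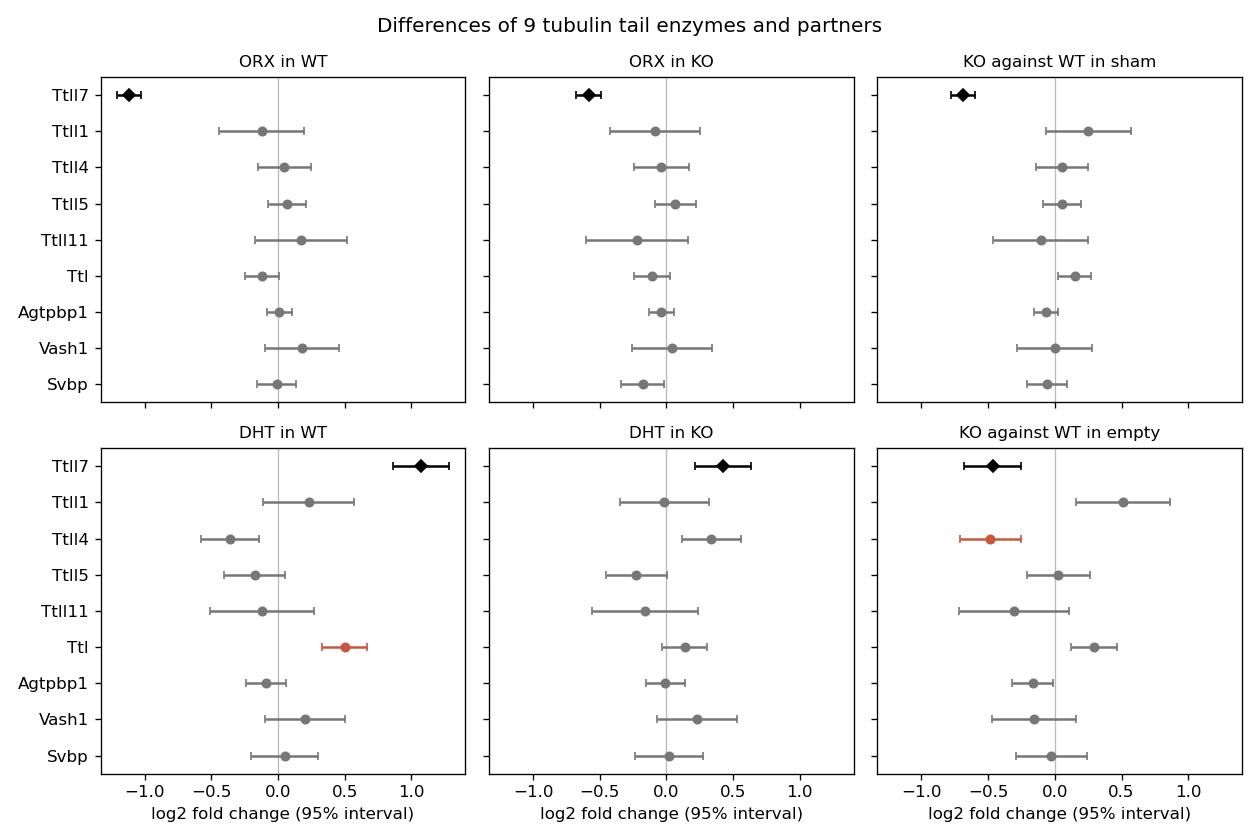
Log2 fold change with its 95% interval for *Ttll7* (black diamonds, described without a test) and the 8 other genes (circles, red where called at q of 0.01 or less and grey otherwise) in 6 comparisons, gastrocnemius above and spinalis below. The intervals of *Ttll7* are given for scale only and are not read against 0. *Ttll7* lies at -1.12 after ORX and 1.07 with DHT in WT, and of the others *Ttl* at 0.50 with DHT in WT and *Ttll4* at -0.48 in KO against WT with empty implants are called.

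In the spinalis, 1 of the 8 enzymes was called with DHT in WT, beside 11.3% of all genes, and 0 with DHT in KO, beside 4.62%. For KO against WT with empty implants 1 was called, beside 4.25%, and for the interaction 1, beside 3.24%. The unadjusted p was under 0.05 for 2, 1, 4 and 2 of the 8 in these comparisons, beside 29.8%, 25.2%, 23.4% and 15.1% of all genes. With DHT in KO, DESeq2 and limma-voom also called 0, with 2 of the 8 under 0.05. Each count of 1 is a single gene. In either muscle 2 of the 8 enzymes were called in at least 1 of the 8 comparisons, beside 20.6% of 17859 genes. The median log2 fold change of the 8 was -0.02 with DHT in WT beside -0.01 over all genes, 0.00 in KO beside -0.01, and -0.09 for KO against WT beside 0.01. The first of these medians was -0.04 without mice 39KR and 50KR.

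*Ttl* (ENSMUSG00000027394) was the enzyme called with DHT in WT. The 5 WT-empty mice stood at 9.41, 11.9, 10.4, 12.6 and 12.1 CPM, and the 6 WT-DHT mice at 14.4, 15.5 and 17.7 CPM as lowest, median and highest. Every WT-DHT mouse was above every WT-empty mouse. The log2 fold change was 0.50 (SE 0.08, q 7.25e-05), beside 1.07 for *Ttll7*. Without mice 39KR and 50KR the value of *Ttl* was 0.47 (q 7.10e-04).

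In KO the picture was flatter. The 5 KO-empty mice stood at 13.6, 14.8, 12.97, 12.4 and 15.5 CPM of *Ttl*, and the 6 KO-DHT mice at 13.8, 15.3 and 16.4 CPM as lowest, median and highest. The mice overlapped, and the log2 fold change was 0.14 (SE 0.08, q 0.308). The difference between the genotypes in the effect of DHT, -0.36 (SE 0.11), had a q of 0.0922 and was not called, so the effects were not shown to differ. KO against WT with empty implants gave 0.29 (SE 0.09, q 0.0307), also not called and opposite in sign to *Ttll7* at -0.47.

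*Ttll4* (ENSMUSG00000033257) was the enzyme called between the genotypes. The 5 WT-empty mice stood at 37.7, 37.8, 46.6, 37.8 and 43.9 CPM and the 5 KO-empty mice at 29.1, 29.5, 25.4, 27.9 and 33.9 CPM. Every KO-empty mouse was below every WT-empty mouse. The log2 fold change was -0.48 (SE 0.11, q 6.26e-03), close to the -0.47 of *Ttll7*. The call did not hold without WT-empty mouse 7KR or 49KR, or without KO-empty mouse 17KR, 33KR, 64KR or 61KR, with values from -0.49 to -0.43 and q up to 0.0230.

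The values of *Ttll4* with DHT had opposite signs in the genotypes. The 6 WT-DHT mice stood at 27.9, 31.2 and 37.7 CPM as lowest, median and highest, and the 6 KO-DHT mice at 30.1, 34.6 and 50.1 CPM. Every WT-DHT mouse was below every WT-empty mouse, the highest of them, 50KR, just under the lowest, while KO-DHT and KO-empty mice overlapped. The log2 fold change was -0.36 (SE 0.11, q 0.0174) in WT and 0.34 (SE 0.11, q 0.0418) in KO, neither called.

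The interaction for *Ttll4* was called, with a difference of 0.70 between the effects of DHT in KO and in WT (SE 0.15, q 7.54e-03). It kept its call without each of the 22 mice in turn, with differences from 0.59, without KO-DHT mouse 6KR, to 0.76. The sign in WT was the reverse of that of *Ttll7*, which was 1.07. DESeq2 and library-size scaling called the lower level in WT as well, with log2 fold changes of -0.36 and -0.43. The call in WT was also reached without WT-DHT mouse 50KR (-0.42) or KO-DHT mouse 6KR (-0.36). Without 39KR and 50KR together, *Ttll4* was called in WT as well, at -0.44 (q 9.15e-03), and its interaction was 0.79 (q 4.19e-03).

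**Figure D3:**
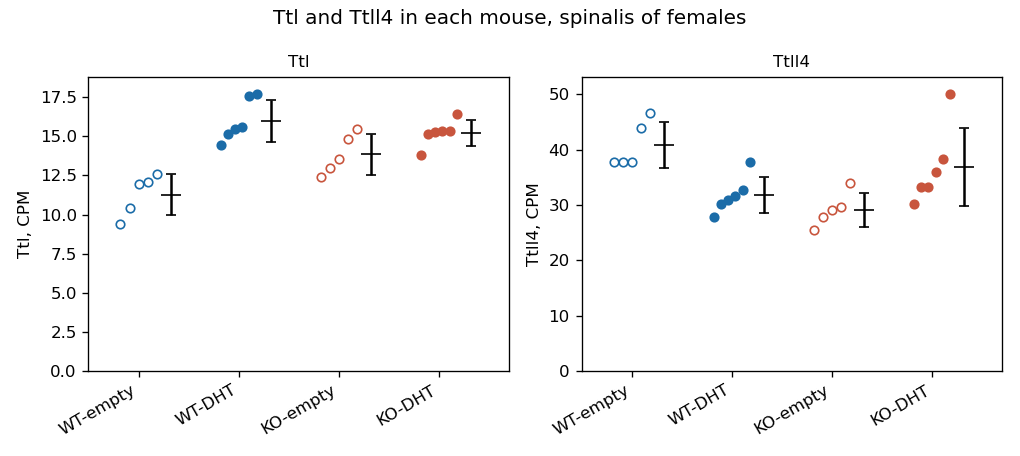
*Ttl* and *Ttll4* in CPM (TMM) in each spinalis mouse of the females. Open circles are empty implants, filled circles DHT, blue WT and red KO, and black marks give the mean and SD of 5 or 6 mice. *Ttl* is 14.4 CPM or more in all WT-DHT mice and 12.6 CPM or less in all WT-empty mice, and *Ttll4* is lower in all KO-empty than in all WT-empty mice.

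Of the remaining members in the spinalis, *Ttll1* differed by 0.51 (SE 0.17, q 0.0627) between KO and WT with empty implants, with overlapping mice. *Ttll11* had KO-empty mice all under the WT-empty mice, but its log2 fold change of -0.31 (SE 0.20) had a q of 0.377. *Agtpbp1* differed by -0.17 (SE 0.07, q 0.177) in that comparison. *Ttll5* differed by -0.23 (SE 0.11, q 0.201) with DHT in KO. Each of these values missed the threshold. *Vash1* and *Svbp* differed by 0.20 (SE 0.15) and 0.05 (SE 0.12) with DHT in WT, and by 0.25 (SE 0.16) and -0.02 (SE 0.14) without mice 39KR and 50KR, with neither called.

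Endothelial cells are a known source of *Vash1*, so their 8 markers, all measured with *Pecam1* the most abundant, stand beside it. Their summed level had means of 214 CPM in WT-empty and 272 CPM in WT-DHT, and of 235 CPM in KO-empty and 279 CPM in KO-DHT. The 4 smooth muscle and pericyte markers, all measured with *Rgs5* the most abundant, went from 410 to 531 CPM in WT and from 396 to 484 CPM in KO. *Tie1* was called higher with DHT by 0.45 in WT and 0.40 in KO (q 5.38e-04 and 4.11e-03), and *Rgs5* by 0.45 and 0.34 (q 5.44e-05 and 3.16e-03). *Pecam1* was called in WT, at 0.33 (q 1.90e-03). Without mice 39KR and 50KR, *Tie1* and *Rgs5* kept their calls in WT, at 0.42 each, and *Pecam1*, at 0.31 (q 0.0116), did not. For the smooth muscle and pericyte sum no DHT mouse overlapped the empty-implant mice of its genotype. Their part in the values of the tubulin enzymes was not tested.

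The 4 satellite cell markers, all measured with *Vcam1* the most abundant, ran the other way from *Ttll7* between most groups. Their summed mean was 9.67 CPM in WT-sham, 12.7 in WT-ORX, 12.98 in KO-sham and 15.3 in KO-ORX. In the spinalis it was 11.1 CPM in WT-empty, 8.46 in WT-DHT, 16.1 in KO-empty and 13.9 in KO-DHT. The part of satellite cells in the values of *Ttll7* was not tested. Of the 4, *Myf5* was called, at 0.75 (SE 0.18, q 5.32e-03) for KO against WT in sham mice.

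Ciliated cells carry much glutamylated tubulin. Of 4 markers of such cells, *Foxj1* and *Dnah5* were not in the tables, and *Rsph1* and *Ccdc39* summed to group means between 1.81 CPM, in KO-DHT, and 4.58 CPM, in KO-empty. *Rsph1* was called lower with DHT in KO, by -1.66 (SE 0.29, q 5.69e-04), and for the sum every KO-DHT mouse, at 2.04 CPM or less, was below every KO-empty mouse, at 2.59 CPM or more. In the other 7 comparisons neither gene was called. The part of these cells was not tested. Fibroblast, macrophage, adipocyte, Schwann cell and erythroid markers, 5 genes each, were all measured. The spread of their sums was wide, as for fibroblasts in KO-ORX, from 1431 to 3349 CPM, with *Dcn* the most abundant. Of the fibroblast markers, *Dcn* was called higher with DHT in WT and KO (0.54 and 0.51), *Pdgfra* lower with DHT in WT (-0.44) and after ORX in WT (-0.23), and *Lum* higher after ORX in WT and KO (0.59 and 0.57) and lower with DHT in KO (-0.98). *Csf1r*, of the macrophage markers, was called lower after ORX in WT (-0.31) and in KO-sham against WT-sham (-0.29). With 39KR and 50KR left out, *Dcn* and *Pdgfra* kept their calls with DHT in WT, at 0.62 and -0.39. Called markers are named after their values were seen.

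Beyond the 9, 13 other genes for tubulin tail ligases and their partners were listed. *Cstpp1* found no identifier under this symbol and could not be looked up. Of the 12 others 6 were measured, and 2 were called in any of the 8 comparisons, beside 20.6% of all genes. *Nicn1*, a subunit of the polyglutamylase complex of *Ttll1*, was 0.26 higher on the log2 scale in KO-sham than in WT-sham (SE 0.06, q 6.73e-03). *Lrrc49*, another subunit of that complex, was 0.62 higher in KO-empty than in WT-empty (SE 0.15, q 8.18e-03). Neither was called in a treatment comparison, and both q values lie close to the threshold of 0.01. For *Nicn1* the call was lost without KO-sham mouse 1, 2, 3 or 6 or WT-sham mouse 3, 4, 5 or 6, with values from 0.22 to 0.27, with the replicate block (0.26, q 0.0109) and with the library-size scaling. For *Lrrc49* it was lost without WT-empty mouse 14KR, 4KR or 7KR, WT-DHT mouse 15KR, KO-empty mouse 33KR, 64KR, 61KR or 62KR, or KO-DHT mouse 40KR, with values from 0.56 to 0.63, and with the library-size scaling.

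Of 8 other tail peptidases, *Matcap1* and *Matcap2* found no identifier under these symbols and could not be looked up. Of the 6 others, 5 were measured in the gastrocnemius and 4 in the spinalis, and 2 were called, beside the same 20.6%. *Vash2*, the relative of *Vash1*, was lower in KO-sham than in WT-sham by a log2 fold change of -1.20 (SE 0.28, q 5.34e-03), at 0.636 against 1.47 CPM and 9 to 96 counts in a library. *Agbl1*, a relative of *Agtpbp1*, differed by -0.43 after ORX in KO (SE 0.10, q 6.08e-03). Of its exonic bases, 20.1% overlap *Gm45210* on the other strand, which is in neither table. The call of *Vash2* was lost without KO-sham mouse 1, 3, 4 or 6 or WT-sham mouse 1, 5 or 6, with values from -1.22 to -1.08. That of *Agbl1* was lost without KO-sham mouse 2, 3 or 6 or KO-ORX mouse 2, 4 or 5, with values from -0.43 to -0.36, and with the library-size scaling.

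The 3 genes that set or remove acetyl marks on tubulin, *Atat1*, *Hdac6* and *Sirt2*, were all measured, and edgeR called 0 of them in the 8 comparisons. Of the 24 values, 7 had an unadjusted p under 0.05 (29.2%), beside 21.6% of the 138004 values of all genes. DESeq2 called 1, *Hdac6* with DHT in WT, and limma-voom called 0.

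Of 14 alpha- and beta-tubulins, the substrate itself, 12 were measured and 7 were called in at least 1 comparison, beside 20.6% of all genes. *Tuba8*, an alpha-tubulin known from muscle and testis, was lower in WT-DHT than in WT-empty, at 89.1 ± 11.8 against 138 ± 12.3 CPM (SD, n = 6 and 5). Its log2 fold change was -0.63 (SE 0.09, q 1.07e-05), and it was -0.56 (SE 0.09, q 4.28e-04) in KO-empty against WT-empty. The interaction of 0.54 (SE 0.13, q 0.0134) was called too, and the value with DHT in KO was -0.08 (SE 0.09). Without mice 39KR and 50KR, *Tuba8* gave -0.74 with DHT in WT and 0.66 for the interaction, both called. *Tuba8* was also lower in KO-sham than in WT-sham, by -0.30 (SE 0.07, q 4.66e-03), a call lost without KO-sham mouse 2, 4 or 6 or WT-sham mouse 1 or 2 (-0.29 to -0.27). Its direction between the genotypes was that of *Ttll7*, and its direction with DHT in WT was the reverse.

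*Tubb6* was higher with DHT in WT by 0.53 (SE 0.10, q 2.63e-04), and *Tuba4a* lower in KO-empty than in WT-empty by -0.37 (SE 0.07, q 6.20e-04). In KO-sham against WT-sham, *Tuba4a* was called lower by DESeq2 (-0.22, q 5.95e-03) and with library-size scaling (-0.25, q 4.50e-03), but not in the main fit. Of the exonic bases of *Tuba4a*, 37.3% overlap exons of *Stk16* on the other strand, and of those of *Tuba8*, 16.3% overlap the antisense *Gm15856*. The strand setting of the counts is not known, so reads of these neighbours may be among theirs. *Tubb5* was higher after ORX in WT by 0.31 (SE 0.06, q 8.34e-04) and in KO by 0.32 (SE 0.06, q 1.41e-03). *Tubb3*, thinly expressed at 0.367 and 1.19 CPM, was higher with DHT in WT by 1.68 (SE 0.34, q 7.31e-04). Without mice 39KR and 50KR, *Tubb6* and *Tubb3* gave 0.52 and 1.63 with DHT in WT, both called. The 2 other called tubulins, *Tubb2a* and *Tubb2b*, moved after ORX in KO and are named after their values were seen. Called tubulins thus moved in both directions.

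A list of 33 severing enzymes, motors and other proteins that bind tubulin or microtubules is called readers below. Whether each of them reads the tubulin tail was not examined. Of the 33, 32 were measured and 9 were called in at least 1 comparison, beside 20.6% of all genes. With DHT in WT, 7 of 32 were called, all higher, and 7 were called without mice 39KR and 50KR. Of all genes, 11.3% were called with DHT in WT in either direction and 6.63% were called higher. By edgeR 15 of the 32 had an unadjusted p under 0.05, beside 29.8%. The median log2 fold change of the 32 with DHT in WT was 0.10, beside -0.01 over all genes. With DHT in KO 0 of 32 were called by edgeR, DESeq2 or limma-voom, beside 4.62% of all genes, and 8 had an unadjusted p under 0.05 by edgeR, beside 25.2%. After ORX in WT 0 of 32 were called by edgeR, beside 5.45% of all genes, 10 had an unadjusted p under 0.05, beside 22.3%, and DESeq2 called 1, *Map1b*. For *Map1b* the log2 fold change was -0.58 (SE 0.15) with a q of 0.0101 by edgeR, next to the threshold. It was called with the replicate block (-0.55, q 2.68e-03), and without KO-sham mouse 3 or 5, KO-ORX mouse 1 or 3 or WT-sham mouse 2 or 3, with values from -0.63 to -0.58.

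*Map1a*, which binds microtubules along their length, was higher with DHT in WT by 0.96 (SE 0.17, q 2.09e-04). Its interaction was -1.20 (SE 0.24, q 3.98e-03), and its value with DHT in KO was -0.25, not called. The WT-DHT mice stood at 13.9, 19.6 and 24.4 CPM as lowest, median and highest. *Map1b*, *Map7* and *Map7d1* were higher with DHT in WT by 0.82, 0.80 and 0.51 (q 2.05e-04, 2.08e-04 and 4.37e-05). Without mice 39KR and 50KR, *Map1a* gave 1.13, *Map1b* 1.00, *Map7* 0.81 and *Map7d1* 0.47, all called. The interaction was then -1.37 for *Map1a*, and for *Map1b* -0.71 in place of -0.54 and called (q 0.0160). *Map7d1* was lower in KO-sham than in WT-sham by -0.44 (SE 0.08, q 2.64e-04), and *Spast*, a severing enzyme, lower in KO-empty than in WT-empty by -0.45 (SE 0.08, q 5.87e-04). *Map1a*, *Kif5c* and *Mapt* were the 3 of 32 readers with a called interaction, all negative, beside 3.24% of all genes called in either direction (322 of 550 negative), and the last pair is named after its values were seen.

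For context, 9 genes that the study itself named as androgen-responsive, chosen on these samples and so no independent measure, were called in 9 of 9 cases after ORX in WT and in 5 of 9 after ORX in KO. With DHT they were called in 9 of 9 cases in WT and 4 of 9 in KO. The 8 tubulin enzymes, measured in the same libraries, were called in 0, 0, 1 and 0 of 8, beside 5.45%, 5.57%, 11.3% and 4.62% of all genes, so these counts are near the background.

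The genes most like *Ttll7* over both tables were found by the root mean square difference of log2 CPM less the WT control of the same table, over 6 group means and 16642 genes. They were *Smtnl2* with a difference of 0.182, *Npc1* with 0.186, *Vldlr* with 0.212, *Slc16a3* with 0.217 and *Gm15956*, thinly expressed, with 0.218. Pearson correlation over the same 6 values ranked 0 of these 5 among its top 5. The 8 enzymes ranked from 3088, *Svbp*, to 11869, *Ttll1*, by the difference, and *Ttl* ranked 5719. The rank of a gene without change in any group was not worked out, so these ranks alone show neither likeness nor unlikeness. By correlation the order was another one: *Ttl* was nearest, at 1203 (r 0.892), *Ttll1* stood at 5620.0 and *Ttll5* was last, at 15217 (r -0.882).

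Since *Ttll7* and *Ttl* were both higher with DHT in WT, their promoter windows of 300 bases around the gene start (RefSeq, GRCm38.p6) are shown. They were searched on both strands for the androgen response element, AGAACA, 3 bases of any kind and TGTTCT, and for TGTTCT alone. The full element is in 3 of 32851 windows (0.00913%), with up to 1 mismatch in 54 (0.164%), and TGTTCT alone in 6233 (19.0%). None of these is in the 10 windows of the 7 members that the table holds, which leaves out *Ttll1* and *Ttll11*, and this says no more than that these letters are not in these windows. The *Ttll7* window is chr3:146852117-146852416 on the plus strand with 60% G and C, and the *Ttl* window is chr2:129065697-129065996 on the plus strand with 70%. No capitals appear because no motif was found.
Ttll7: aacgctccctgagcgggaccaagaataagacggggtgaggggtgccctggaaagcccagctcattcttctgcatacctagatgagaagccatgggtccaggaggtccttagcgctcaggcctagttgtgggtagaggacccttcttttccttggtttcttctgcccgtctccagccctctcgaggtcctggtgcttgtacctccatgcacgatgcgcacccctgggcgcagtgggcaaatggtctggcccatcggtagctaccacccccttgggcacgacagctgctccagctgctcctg
Ttl: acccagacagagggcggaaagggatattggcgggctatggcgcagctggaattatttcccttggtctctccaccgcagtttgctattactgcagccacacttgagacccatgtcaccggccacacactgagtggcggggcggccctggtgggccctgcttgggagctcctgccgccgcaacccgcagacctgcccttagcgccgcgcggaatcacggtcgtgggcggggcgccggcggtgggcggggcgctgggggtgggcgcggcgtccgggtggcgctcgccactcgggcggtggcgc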

How the data were processed

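From stranded libraries of total RNA, the authors aligned reads to GRCm39 (STAR 2.7.1b), marked duplicates (Picard 2.20.2) and deposited raw counts per gene (featureCounts, Subread 2.0.0). The strand setting of the counting and the annotation release are not stated. Of 46 labelled samples 45 were used: KO-ORX replicate 6 has no column and is not analysed here. DHT columns could be assigned to a group but not to a labelled replicate, so DHT mice carry the number in their column. Symbols came from GENCODE M21 on GRCm38 by Ensembl identifier (17433 and 16920 genes matched), which also gave exonic lengths.

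Counts were analysed in R 4.3.3 with edgeR 4.0.16 (TMM, 1 mean per group, quasi-likelihood F tests, Benjamini-Hochberg over all genes of a contrast), with limma 3.58.1 and DESeq2 1.42.0 as alternatives. Requiring 0.5 CPM in 2 or more libraries removed 0 genes, so every gene in the deposited counts already passed this filter. Genes given as not measured are absent from these counts, and shares of all genes are shares of the genes present in them. Thresholds were q of 0.01 (interaction: 0.05). CPM are TMM-scaled, and log2 CPM used a prior count of 2. Figures used Python 3.11.15 and matplotlib 3.10.9.

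Members and lists were chosen with earlier results of these data known. The named genes were the members, every called gene of a tubulin list with at most 5 called and otherwise the 5 with the smallest p, the 5 genes most like *Ttll7*, and *Actn3*. Other genes are named where stated. The alternatives were limma-voom, DESeq2, library-size scaling, 10 counts in every library, other thresholds, a replicate block for ORX, Pearson likeness and leaving out each mouse. Leaving out WT-DHT mice 39KR and 50KR together was chosen after seeing the data. Simulated data served as a test of the code.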

Additional observations from a re-analysis of the deposited data

Results flagged for a closer look

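In 5 of 72 groups of mice (9 genes in 8 groups), 1 mouse stood far from the others. The measure was its gap to the nearest mouse divided by the whole range of the group, both on log2 CPM. Levels below are in CPM, and ratios taken on CPM would differ. About 1 group in 20 has such a mouse by chance. *Ttll7* was lowest in WT-empty mouse 35KR, at 211 CPM against 245 CPM in the nearest mouse, a ratio of 0.739. *Ttll1* was lowest in WT-DHT mouse 50KR, at 2.05 against 2.85 CPM, a ratio of 0.626, and the library of 50KR is 1 of the 2 that stood apart. Without 39KR and 50KR, *Ttll1* with DHT in WT was 0.33 in place of 0.23, not called in either case. *Ttll5* was lowest in KO-ORX mouse 1, at 7.83 against 9.69 CPM (0.753), and highest in WT-ORX mouse 4, at 10.1 against 9.26 CPM (0.652). *Agtpbp1* was highest in KO-ORX mouse 2, at 86.1 against 78.5 CPM, a ratio of 0.762. These mice were different ones in each case. Without mouse 35KR, the log2 fold change of *Ttll7* between KO-empty and WT-empty was -0.52 in place of -0.47.

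The effect of DHT differed between the genotypes by the interaction term for *Ttll4* (0.70), *Tuba8* (0.54) and *Map1a* (-1.20), each in log2 units as KO minus WT. For *Ttll4* the values in WT and KO had opposite signs, but neither was called. For *Tuba8* the value was -0.63 in WT, called, and -0.08 in KO, not called. For *Map1a* it was 0.96 in WT, called, and -0.25 in KO, not called.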

How the results depend on the processing

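No called value of a named gene changed direction under the alternatives run. At a threshold of 0.05, the genes called were 1735, 1925 and 1838 (ORX in WT, ORX in KO, KO against WT in sham) and 3078, 1840 and 1557 (DHT in WT, DHT in KO, KO against WT in empty). The other enzymes called were then 2, 1 and 2 in the DHT comparisons, *Ttl* and *Ttll4*. At 0.01, the interaction had 1 gene for ORX and 273 for DHT. These follow from the threshold.

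For the ORX interaction, limma-voom called 10 genes and DESeq2 127, against 4. For DHT in KO, DESeq2 called 1201, against 784. For DHT in WT, library-size scaling and DESeq2 each called 2 enzymes, *Ttl* and *Ttll4*. With library-size scaling, *Ttll7* was -0.47 after ORX in KO and 0.60 in the ORX interaction. The cause was not tested. That scaling moved the median of all genes after ORX in KO from 0.01 to 0.12, and less that median *Ttll7* was -0.60 with either scaling. Under it 6 of the 9 members had the same sign as with TMM in that comparison. Among called genes, the percentage higher went from 37.5% to 54.4% (ORX in WT), 35.7% to 78.6% (ORX in KO), 46.8% to 38.5% (KO against WT in sham), 58.8% to 43.6% (DHT in WT), 62% to 58.2% (DHT in KO), 41.3% to 52.9% (KO against WT in empty) and 41.5% to 55.1% (DHT interaction), and from 3 of 4 genes to 3 of 3 (ORX interaction).

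Leaving out 1 mouse at a time, genes called ranged from 732 to 988 (ORX in WT), 589 to 1116 (ORX in KO, the lowest without KO-ORX mouse 4, and low without mouse 5), 690 to 977 (KO against WT in sham) and 2 to 38 (ORX interaction, the highest without KO-ORX mouse 3, and over 1.5 times from 4 also without KO-sham mouse 2, 4, 5 or 6, WT-sham mouse 1, 2, 4 or 6 or WT-ORX mouse 2 or 4). They ranged from 1607 to 1960 (DHT in WT), 533 to 870 (DHT in KO), 450 to 700 (KO against WT in empty, the lowest without WT-empty mouse 7KR, and low without WT-empty mouse 4KR or KO-empty mouse 64KR) and 430 to 658 (DHT interaction). Enzymes called stayed at 0 in the 4 ORX comparisons and for DHT in KO, ranged from 1 to 2 for DHT in WT and from 0 to 1 for KO against WT in empty, and stayed at 1 for the DHT interaction. *Ttll7* ranged from -1.14 to -1.09 (ORX in WT), -0.60 to -0.57 (ORX in KO), -0.71 to -0.67 (KO against WT in sham), 0.51 to 0.56 (ORX interaction), 0.98 to 1.13 (DHT in WT), 0.37 to 0.46 (DHT in KO), -0.52 to -0.43 (KO against WT in empty) and -0.71 to -0.56 (DHT interaction).

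Without WT-DHT mice 39KR and 50KR together, chosen after seeing the data, 2 enzymes were called for DHT in WT, *Ttl* and *Ttll4*.

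With a replicate block in the ORX fit, 934, 914, 921 and 5 genes were called and 0 enzymes. Replicate numbers showed no pairing of mice: over 33 pairs with the same number, the median correlation of residuals was 0.00697, against -0.00881 for other pairs. Likeness by Pearson correlation shared 0 of 5 genes with the root mean square measure.

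*Ttll1*, *Ttll11*, *Vash1*, *Vash2* and *Tubb3* had few counts in a library, and the part of this in their errors was not tested. Each group has 5 or 6 mice, 1 muscle and 1 time point. *Actn3* is deleted in every tissue, and RNA levels do not give enzyme activity or tubulin marks.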
